A study of Arabidopsis thaliana with 4 samples.

Results

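A group of 113 Arabidopsis probe sets, out of 22746 plant probe sets, gave at least 2.5-fold stronger signals in both seedling RNA samples numbered 2 than in both samples numbered 1 or 1b, whichever genotype the seedlings had. The samples came from 10-day-old seedlings of ecotype Col-0, the standard laboratory strain, grown on Murashige-Skoog salts in long days at 23 °C. The tested plants carried 35S:miR396, which places the microRNA miR396 under the 35S promoter, a strong promoter from cauliflower mosaic virus that is active in most plant tissues, and they were set against wild-type plants. Each genotype had 2 Affymetrix arrays, called here 35S:miR396 2, wild type 2, 35S:miR396 1 and wild type 1b. Number 2 stands for the first pair and number 1 for the second. The labels do not say whether a number marks a shared sowing, harvest or hybridisation, how many lines or plants went into a sample, or whether samples were separate cultures.

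The members were chosen by these same signals. Each array was divided by its median and multiplied by 70, and a probe set was kept where both number 2 arrays reached at least 50 and each was at least 2.5 times both number 1 arrays. Of all plant probe sets 120, or 0.528%, met these values, and 7 of those belonged to 8 genes that the rule leaves out (LTI30, COR15A, COR15B, BHLH101, EXPA8, AT1G04770 and AT5G20790 met the values, AT3G02480 did not). The remaining 113 include 50 probe sets that the platform annotation ties to 1 gene, 60 with no gene given and 3 with several genes. Those 63 are not named here, as the annotation used ties none of them to a single gene. The same rule turned round, with number 1 above number 2, was met by 77 probe sets. Because the numbers entered the choice, all differences between number 2 and number 1 below describe the members and were not tested.

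Signals on these arrays report the amount of each transcript in a whole seedling, so fewer cells of a type and less RNA per cell cannot be told apart. Growing plant cells are held together by pectin, a polysaccharide that pectate lyases, polygalacturonases and acetylesterases cut or trim when walls loosen or cells separate. UDP-glycosyltransferases attach sugars to hormones, flavonoids and foreign chemicals, which changes their activity or storage, and beta-glucosidases remove such sugars. Cryptochromes, the blue-light receptors, are switched off by small inhibitor proteins.

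The members covered a broad span of signal. Their scaled signals lay between 50.4 and 4273 on the number 2 arrays and between 2.43 and 1597.5 on the number 1 arrays. The median member had 268 on 35S:miR396 2 and 265 on wild type 2, against 63.8 on 35S:miR396 1 and 72.1 on wild type 1b. By mean signal over the 4 arrays, the median member stood at the 62.8th percentile of all plant probe sets, with a range of 33.8 to 97.5. The separation was mostly modest. Taking the lower number 2 signal over the higher number 1 signal, which is called the ratio here, 58 members lay between 2.5 and 3, 39 between 3 and 4, 11 between 4 and 6, and 5 at 6 or above. The median ratio was 2.99. It was 2.93 among the 50 members with 1 gene and 3.04 among the 63 without, and 7 of the 10 largest ratios belonged to probe sets without a single gene.

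**Figure D1:**
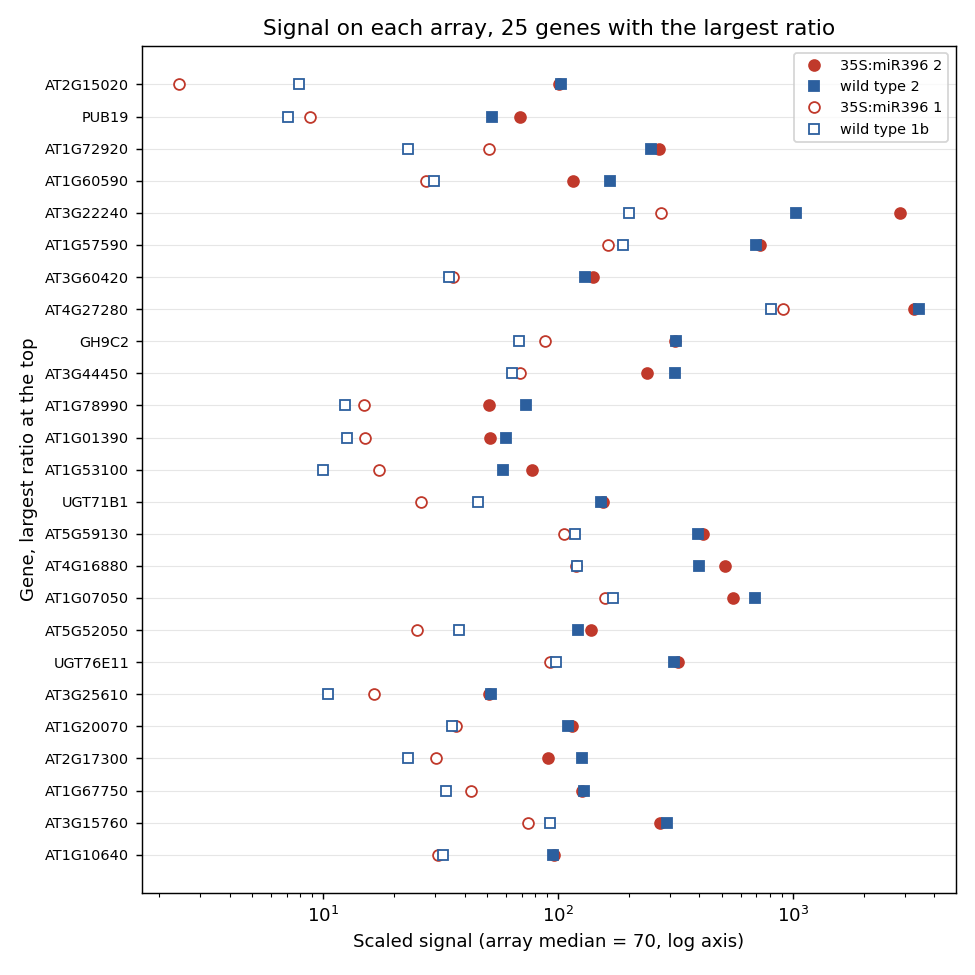
Scaled signal on each of the 4 arrays (log axis, array median set to 70) for the 25 single-gene members with the largest ratio, largest at the top. Filled points are number 2 arrays and open points number 1 arrays; red circles are 35S:miR396 and blue squares wild type. The 4 signals of AT2G15020 stand farthest apart, at 101 and 103 on the number 2 arrays against 2.43 and 7.88 on the number 1 arrays.

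The gene with the largest ratio, AT2G15020, has no function stated here. Its signal was 101 on 35S:miR396 2 and 103 on wild type 2, against 2.43 on 35S:miR396 1 and 7.88 on wild type 1b. Its ratio was 12.8, and it was the only single-gene member with a ratio over 6. Both of its number 1 signals lay far below the array median, where a small difference in signal is a large fold.

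Of the functional groups used here, enzymes acting on pectin formed the largest, with 6 of the 50 genes. The groups were drawn up for the members, so their sizes depend on how the genes were divided. No share over all probe sets was counted for the pectin group as a whole. AT1G60590 and AT1G10640 belong to the pectin lyase-like superfamily, which includes the polygalacturonases that cut the pectin backbone. AT1G60590 had the higher ratio, at 3.92, with 116 on 35S:miR396 2 and 167 on wild type 2, against 27.5 on 35S:miR396 1 and 29.5 on wild type 1b. AT1G10640 had 96.1 on 35S:miR396 2 and 95.1 on wild type 2, against 30.8 on 35S:miR396 1 and 32.4 on wild type 1b. The genotypes lay close together within each number for AT1G10640. AT1G57590, a pectin acetylesterase that removes acetyl groups from pectin, had 727 on 35S:miR396 2 and 695 on wild type 2, against 163 on 35S:miR396 1 and 189 on wild type 1b.

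The other 3 pectin genes encode pectate lyases. AT4G24780 had 725 on 35S:miR396 2 and 839 on wild type 2, against 274 on 35S:miR396 1 and 251 on wild type 1b. AT5G63180 had 615 on 35S:miR396 2 and 805 on wild type 2, against 229.6 on 35S:miR396 1 and 232 on wild type 1b. Both were among the stronger members, and in both the wild-type signal was the higher of the number 2 pair. AT1G67750, a weaker transcript, had 127 on 35S:miR396 2 and 129 on wild type 2, against 42.7 on 35S:miR396 1 and 33.4 on wild type 1b. The rule kept 0.37% of all 13513 probe sets with 1 gene. Of 27 pectate lyase genes listed, 23 were measured by a probe set of 1 gene, 7 had both number 2 signals above both number 1 signals, and 6 had the opposite order. Over all 13513, both number 2 signals lay above both number 1 signals in 22.2%, and the order was opposite in 28.8%. The shares for the pectate lyases were 30.4% and 26.1%. Their median fold, number 2 over number 1, was 0.93, against 0.96 over all 13513. As the rule used the same contrast, nothing is read from these shares or from those of the families below. Of 12 listed pectin acetylesterases 6 were measured, 3 with number 2 above number 1 (50%, against 22.2% over all). The other 3 had the opposite order (50%, against 28.8%).

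**Figure D2:**
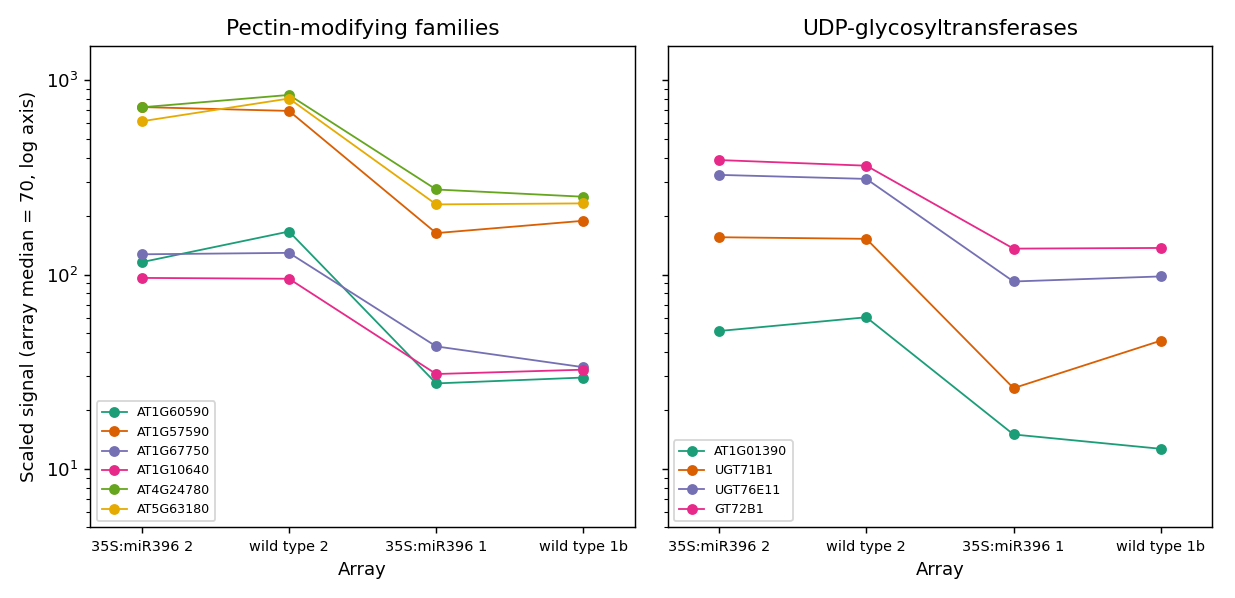
Scaled signal (log axis, array median set to 70) on the 4 arrays for the 6 pectin-related members (left) and the 4 UDP-glycosyltransferases (right), 1 line per gene. Every line is high on 35S:miR396 2 and wild type 2 and low on 35S:miR396 1 and wild type 1b, as the rule requires, while the level differs between genes.

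Outside pectin, the cell wall was represented by GH9C2, an endoglucanase of the family that cuts cellulose-type chains. GH9C2 had 316 on 35S:miR396 2 and 317 on wild type 2, against 88.3 on 35S:miR396 1 and 68.0 on wild type 1b. Its number 2 signals were almost equal in the genotypes. Of 15 measured GH9 genes, 3 had both number 2 signals above both number 1 signals, against 22.2% of all probe sets with 1 gene, and 6 had the opposite order, against 28.8%. AT1G53100, from a glycosyltransferase family named after core-2/I-branching enzymes of animals, had 77.6 on 35S:miR396 2 and 58.5 on wild type 2, against 17.2 on 35S:miR396 1 and 10.0 on wild type 1b.

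UDP-glycosyltransferases gave 4 genes. GT72B1, which in Arabidopsis conjugates chlorophenols and other phenolics with glucose, had 388 on 35S:miR396 2 and 363 on wild type 2, against 136 on 35S:miR396 1 and 137 on wild type 1b. UGT76E11 had 326 on 35S:miR396 2 and 310.4 on wild type 2, against 92.1 on 35S:miR396 1 and 97.8 on wild type 1b. UGT71B1, which can glucosylate small phenolic compounds, had 156 on 35S:miR396 2 and 153 on wild type 2, against 26.0 on 35S:miR396 1 and 45.7 on wild type 1b. In GT72B1 and UGT76E11 the genotypes were nearly level within each number, while in UGT71B1 the wild-type signal was the higher of the number 1 pair. AT1G01390 stayed close to the floor of the rule, with 51.2 on 35S:miR396 2 and 60.3 on wild type 2, against 15.0 on 35S:miR396 1 and 12.7 on wild type 1b. Among 60 listed genes of this family 49 were measured, of which 20 had number 2 above number 1 on all arrays (40.8%, against 22.2% over all) and 7 the opposite order (14.3%, against 28.8%). Their median fold was 1.35, against 0.96 over all. The list was drawn by gene symbol, and the member AT1G01390, which lacks such a symbol, was added to it. Other genes of the family without such a symbol, AT2G31790 and AT4G14090 among them, were not added. UGT73B5 was 1 of the 5 genes just outside the rule, at a ratio of 2.46. BGLU44, a beta-glucosidase, was among the strongest members, with 2579 on 35S:miR396 2 and 2094 on wild type 2, against 835 on 35S:miR396 1 and 782 on wild type 1b. Of 20 measured beta-glucosidases, 6 had number 2 above number 1 on all arrays (30%, against 22.2% over all). The opposite order was found in 5 (25%, against 28.8%).

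**Figure D3:**
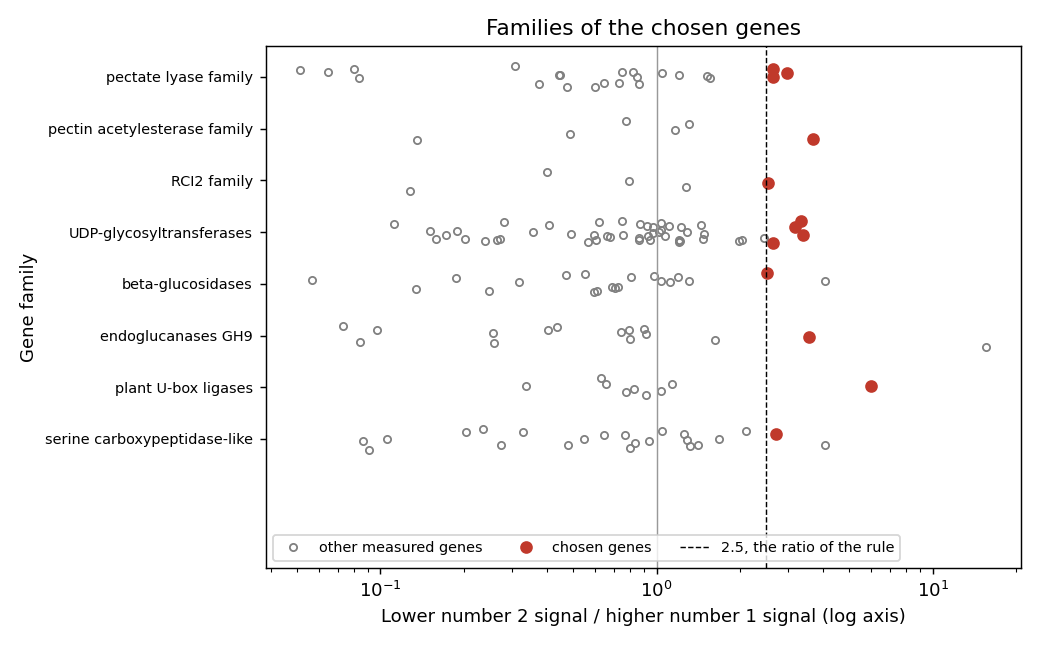
The lower number 2 signal divided by the higher number 1 signal (log axis) for every measured gene of the families that hold chosen genes, 1 point per gene; filled red points are members, and the dashed line is the ratio of 2.5. In each family most measured genes lie left of the line; the 3 open points to its right, named after their values were seen, are BGLU31, GH9B8 and scpl23, which did not reach 50 on both number 2 arrays.

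Regulators of light responses and transcription accounted for 4 genes. AT3G44450 and AT3G52740 encode BIC2 and BIC1, the small proteins that block activation of cryptochromes and whose own transcripts are known to increase in light. AT3G44450 had 240.4 on 35S:miR396 2 and 315 on wild type 2, against 69.1 on 35S:miR396 1 and 63.5 on wild type 1b. AT3G52740 had 106 on 35S:miR396 2 and 130.3 on wild type 2, against 40.4 on 35S:miR396 1 and 39.7 on wild type 1b. In both, the wild-type signal was the higher of the number 2 pair, and the number 1 signals were close together. AT1G07050, a protein with a CCT motif as found in clock and flowering regulators, had 559 on 35S:miR396 2 and 687 on wild type 2, against 159 on 35S:miR396 1 and 171 on wild type 1b. ORA47, an AP2/ERF transcription factor of the jasmonate response, had 611 on 35S:miR396 2 and 575 on wild type 2, against 218 on 35S:miR396 1 and 207 on wild type 1b. Its fold was nearly the same in the genotypes, 2.81 in 35S:miR396 and 2.78 in wild type.

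Stress signalling also held 4 genes. PUB19, a U-box ubiquitin ligase known from abscisic acid and drought responses, had 69.0 on 35S:miR396 2 and 52.4 on wild type 2, against 8.79 on 35S:miR396 1 and 7.12 on wild type 1b. Its ratio of 5.96 was the second largest among the single-gene members, from number 1 signals far below the array median. AT4G27280, an EF-hand calcium-binding protein, was the strongest single-gene member, with 3267 on 35S:miR396 2 and 3429 on wild type 2, against 908 on 35S:miR396 1 and 810.5 on wild type 1b. AT4G30650, from the RCI2 family of small membrane proteins linked to cold and salt, had 1530 on 35S:miR396 2 and 1979 on wild type 2, against 549 on 35S:miR396 1 and 601 on wild type 1b. AT3G16560, a protein phosphatase of the PP2C type, stood at the edge of the rule with a ratio of 2.503. Its signals were 319 on 35S:miR396 2 and 309 on wild type 2, against 123 on 35S:miR396 1 and 105 on wild type 1b. Of 9 measured plant U-box ligases, 3, PUB19 included, had number 2 above number 1 on all arrays (33.3%), and 1 had the opposite order (11.1%). Of 5 measured RCI2 genes, 2, AT4G30650 included, had number 2 above number 1 (40%), and 0 had the opposite order. Over all probe sets with 1 gene the shares were 22.2% and 28.8%. Each count holds the member that the rule chose for this order.

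Defence-related families gave 3 genes, and in 2 of them the genotypes were over 2-fold apart on 1 of the numbers. AT3G22240, a small cysteine-rich membrane protein related to PCC1, had 2847 on 35S:miR396 2 and 1033 on wild type 2, against 275 on 35S:miR396 1 and 199.6 on wild type 1b. The 35S:miR396 signal was thus the higher one on both numbers, by 1.46 on the log2 scale on number 2 and by 0.46 on number 1. AT1G72920, a TIR-domain protein of the kind found in immune receptors, had 269 on 35S:miR396 2 and 248 on wild type 2, against 50.7 on 35S:miR396 1 and 22.9 on wild type 1b. Here the genotypes were close on number 2 and lay 1.15 apart on the log2 scale on number 1, with 35S:miR396 higher. AT4G16880, a leucine-rich repeat protein, had 515 on 35S:miR396 2 and 397 on wild type 2, against 119 on 35S:miR396 1 and 120.4 on wild type 1b.

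Transport and metal handling gave 5 genes. AT1G47400 encodes IMA1, a short peptide that promotes iron uptake and whose transcript rises when iron is short. It had 93.2 on 35S:miR396 2 and 193 on wild type 2, against 27.1 on 35S:miR396 1 and 36.8 on wild type 1b. The wild-type signal was the higher on both numbers, by 1.05 on the log2 scale on number 2 (a 35S:miR396 over wild type value of -1.05) and by 0.44 on number 1 (a value of -0.44). AT1G51090, with a heavy-metal-associated domain, lay the other way, with 369 on 35S:miR396 2 and 251 on wild type 2, against 99.5 on 35S:miR396 1 and 72.4 on wild type 1b. AT5G52050, the MATE transporter DTX50 that exports abscisic acid, had 138 on 35S:miR396 2 and 122 on wild type 2, against 24.99 on 35S:miR396 1 and 37.8 on wild type 1b. OCT5, of the carnitine transporter family, had 225 on 35S:miR396 2 and 311 on wild type 2, against 62.8 on 35S:miR396 1 and 81.8 on wild type 1b. AT3G25610, the lipid flippase ALA10, sat just above the floor of 50, with 51.0 on 35S:miR396 2 and 51.7 on wild type 2, against 16.4 on 35S:miR396 1 and 10.5 on wild type 1b.

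Of the remaining genes with a known family, 2 were peptidases. AT5G59130, a subtilase, had 416 on 35S:miR396 2 and 393 on wild type 2, against 106 on 35S:miR396 1 and 118 on wild type 1b. The serine carboxypeptidase-like gene scpl35 had a fold of 3.26 in 35S:miR396 and 2.72 in wild type. Of 23 measured genes of its family, 9 had number 2 above number 1 on all arrays (39.1%, against 22.2% over all). The opposite order was found in 3 (13.0%, against 28.8%). Another 5 genes encode enzymes of unrelated kinds. AT3G60420, of the phosphoglycerate mutase family, had 141 on 35S:miR396 2 and 129.8 on wild type 2, against 35.6 on 35S:miR396 1 and 34.4 on wild type 1b. AT1G78990, a BAHD acyltransferase, had 50.9 on 35S:miR396 2 and 73.0 on wild type 2, against 14.9 on 35S:miR396 1 and 12.4 on wild type 1b. The methyltransferase-family gene AT4G22530 and the HAD-type hydrolase AT5G02230 had folds of 3.05 and 3.02 in 35S:miR396 and of 2.98 and 2.77 in wild type. AT5G17760, an AAA-type ATPase, is described with the genotypes below.

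A further 5 genes belong to broad protein families, namely a DnaJ-type chaperone (AT3G14200), a TPR-repeat protein (AT5G02830), a glycine-rich protein (AT4G32920) and genes with the domains DUF761 (AT1G11210) and DUF716 (AT1G49470). Their ratios ran between 2.62 and 2.92. For 9 genes no role is stated here. Besides AT2G15020 these are AT1G20070, AT2G17300, AT3G15760, AT1G16850, AT1G19960, AT4G24380, AT3G23170 and AT5G01790, and their ratios lay between 2.56 and 3.003. AT1G20070 had 114 on 35S:miR396 2 and 110.2 on wild type 2, against 36.7 on 35S:miR396 1 and 35.3 on wild type 1b. AT3G15760 had 273 on 35S:miR396 2 and 292 on wild type 2, against 74.3 on 35S:miR396 1 and 92.2 on wild type 1b. AT2G17300 had 90.7 on 35S:miR396 2 and 126 on wild type 2, against 30.3 on 35S:miR396 1 and 23.0 on wild type 1b. In the first of these the genotypes were nearly level, whereas in AT2G17300 their order was opposite on the numbers.

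Among the 63 probe sets without a single gene, the ratio ran between 2.52 and 7.70. The probe set 245265_at had the largest, with 178 on 35S:miR396 2 and 132 on wild type 2, against 17.1 on 35S:miR396 1 and 13.8 on wild type 1b. A second, 267364_at, combined a ratio of 6.999 with strong signals, at 891 on 35S:miR396 2 and 1050 on wild type 2, against 121 on 35S:miR396 1 and 127 on wild type 1b. These probe sets hold more than 1 in 2 of the members, so the functions given above cover less than the whole group.

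The rule's border passed through a continuous run of values. The single-gene members just inside it were AT3G16560 at 2.503, BGLU44 at 2.51, AT1G51090 at 2.52, AT1G47400 at 2.53 and AT4G30650 at 2.54. Just outside, also with both number 2 signals at 50 or above, were AT2G39650 at 2.48, UGT73B5 and AT1G69526 at 2.46, AT2G23910 at 2.42 and AT3G61820 at 2.40. No gap in the values marks the border.

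From 22 lists of plant pathways (cold, abscisic acid, iron, sulfur, photosynthesis, clock, auxin, sugar starvation and others, 372 genes in all), 61 genes in 18 lists were measured by a probe set of 1 gene. AT1G47400 was the 1 member among them, or 1.64%, against 0.37% of all probe sets with 1 gene. A further 7 met the values but are genes the rule leaves out, and 53 did not meet it. The largest ratio among those 53 was 1.91. Of the 61 genes, 19 had number 2 above number 1 on all arrays (31.1%, against 22.2% over all) and 23 the opposite order (37.7%, against 28.8%). Nothing is read from these shares, since the rule used the contrast. The other listed genes had no probe set of 1 gene in the annotation used. Members without a single gene were not checked against the lists, so the counts do not show how many members belong to these pathways.

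The genotypes shared the direction by construction, since the rule asks it of each array. How far they matched in size was left only partly free, since each number 2 array was also set against the number 1 array of the other genotype. UGT73C1, for example, had folds of 4.08 in 35S:miR396 and 3.07 in wild type. It was not chosen, as its ratio was 2.05. The fold of number 2 over number 1 had a median of 3.54 in 35S:miR396, with a range of 2.54 to 41.5, and a median of 3.73 in wild type, with a range of 2.55 to 13.0. Over the 15923 probe sets kept for the genotype comparison, the median folds were 0.962 in 35S:miR396 and 0.986 in wild type. The fold was larger in 35S:miR396 for 55 members and larger in wild type for 58. The difference of the log2 folds, 35S:miR396 minus wild type, had a median of -0.01 and an SD of 0.72 over the 113 members, with quartiles at -0.38 and 0.26. It had an SD of 0.49 over all 15923. With 1 array per genotype and number, no difference of this kind has replicates, so none was tested.

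**Figure D4:**
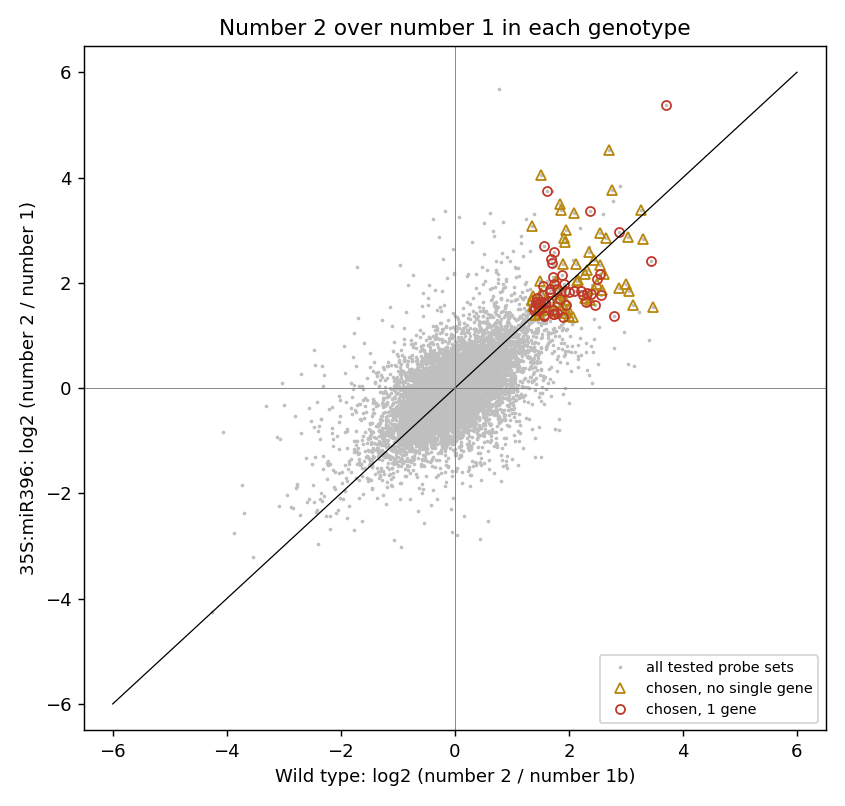
Log2 of number 2 over number 1 in 35S:miR396 (vertical) against wild type (horizontal); grey points are the 15923 probe sets kept for the genotype comparison, red circles the 50 single-gene members and yellow triangles the 63 others, and the diagonal marks equal folds. The members fill the upper right corner that the rule cuts out and scatter on both sides of the diagonal, 55 with the larger fold in 35S:miR396 and 58 in wild type.

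The folds of 17 members, or 15.0%, lay over 2-fold apart between the genotypes, against 5.55% of the 15923 probe sets. Since weak number 1 signals enter the rule and these folds alike, nothing is read from that share. Of the 17, 11 had the larger fold in 35S:miR396 and 6 in wild type, and 5 are single genes. The gap came mostly from the number 1 arrays. In 12 of the 17 the genotypes were over 2-fold apart on number 1, and in 2 of the 17 on number 2. AT1G16850 had 99.7 on 35S:miR396 2 and 109.6 on wild type 2, against 7.40 on 35S:miR396 1 and 36.0 on wild type 1b. AT5G17760 had 69.2 on 35S:miR396 2 and 78.4 on wild type 2, against 10.6 on 35S:miR396 1 and 26.5 on wild type 1b. In both, and in AT2G15020, the number 2 signals matched closely and 35S:miR396 1 was the lowest array. AT3G23170 had 269 on 35S:miR396 2 and 298 on wild type 2, against 104 on 35S:miR396 1 and 43.0 on wild type 1b. There, as in AT1G72920, wild type 1b was the lowest array instead. The closest folds were those of AT1G20070, ORA47, AT4G22530, AT3G60420 and OCT5.

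Genotype itself was the comparison the study was laid out for, and the rule asked for no genotype difference. It did set each number 2 array against both number 1 arrays, so it tends to leave out probe sets whose genotypes differ. How close the genotypes lie in the members is thus partly set by the rule. Set against wild type within each number, 80 of the 113 members, or 70.8%, were within 1.5-fold on both numbers, against 85.9% of all 15923. The median log2 difference of 35S:miR396 over wild type was -0.03 on number 2 and -0.00 on number 1. It pointed the same way on both numbers for 60 members, or 53.1%, against 49.8% of all. Of those, 27 were higher in 35S:miR396 on both numbers and 33 lower. The genotypes were over 2-fold apart on number 1 for 12 of the 113 members, against 369 of all 15923 probe sets. Since the rule favours weak number 1 signals, where folds are imprecise, nothing is read from that count. On number 2 the genotypes were over 2-fold apart for 4 of the 113 members, against 314 of all 15923. Those 4 are AT3G22240, AT1G47400 and 2 probe sets without a gene. Of the unnamed 2, 256766_at had 1799 on 35S:miR396 2 and 599 on wild type 2, against 179.6 on 35S:miR396 1 and 141 on wild type 1b. The other, 257382_at, had 130.4 on 35S:miR396 2 and 51.9 on wild type 2, against 9.603 on 35S:miR396 1 and 7.69 on wild type 1b. As in AT3G22240, both were higher in 35S:miR396 on both numbers.

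**Figure D5:**
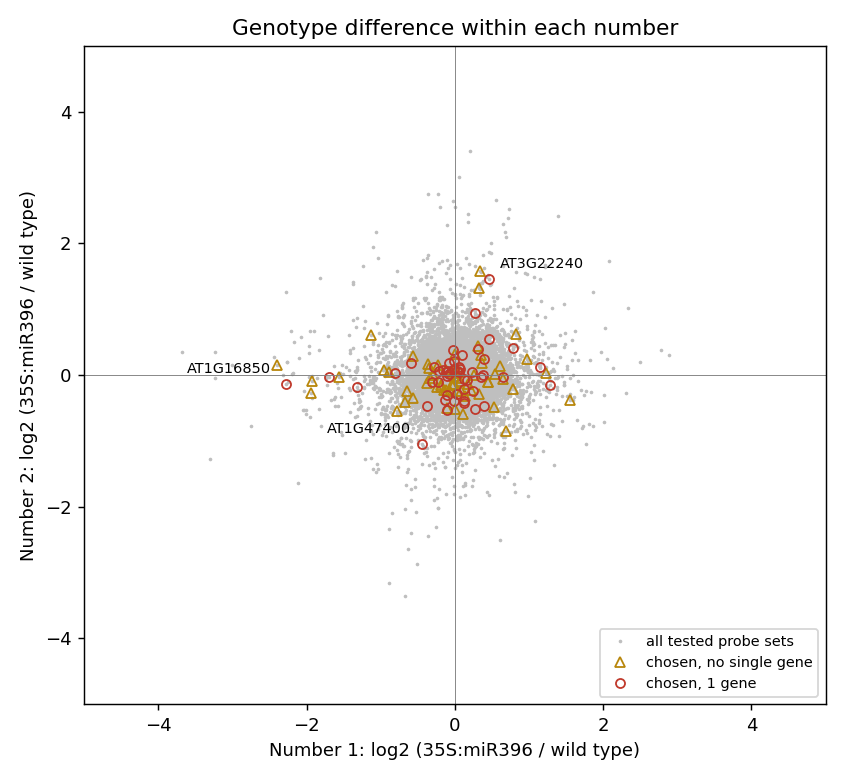
Log2 of 35S:miR396 over wild type on the number 2 arrays (vertical) against the number 1 arrays (horizontal); grey points are the 15923 probe sets compared, red circles single-gene members and yellow triangles other members. Most members lie around 0 on both axes, with AT3G22240 higher in 35S:miR396 on both numbers, AT1G47400 lower on both, and AT1G16850 low in 35S:miR396 on number 1.

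In limma's moderated test over all 15923 probe sets, with Benjamini-Hochberg adjustment, 0 of the 113 members passed an adjusted p of 0.05, and 0 of all probe sets did, so the percentage called was 0. At an unadjusted p under 0.05 the counts were 0 of the 113 members and 104 of all. The labels name no separate cultures, so such p-values weigh a difference only against the scatter of these 4 samples, and that scatter may be technical. By their choice the members vary strongly within each genotype, and the test was correspondingly wide for them. The 95% interval of the log2 difference had a median half-width of 2.36 among members, against 0.63 over all probe sets. The members with the largest moderated t were AT1G16850, AT1G47400, AT5G17760, AT3G22240 and AT1G19960. For AT3G22240 the log2 difference of 35S:miR396 minus wild type was 0.96 with a 95% interval of -2.51 to 4.44, and the adjusted p by limma was 1.00. For AT1G47400 it was -0.75, with an interval of -3.30 to 1.81. AT1G19960 had 405 on 35S:miR396 2 and 210.1 on wild type 2, against 78.0 on 35S:miR396 1 and 64.8 on wild type 1b, and its interval ran between -1.88 and 3.09.

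Measures of the whole arrays are set beside these results, and their part in them was not tested. The deposited array medians were 81.3 on 35S:miR396 2 and 71.3 on wild type 2, against 60.5 on 35S:miR396 1 and 72.8 on wild type 1b, before they were set equal. The 3′ over 5′ signal ratio of the GAPDH control, a measure of how complete the RNA was, stood at 1.57 on 35S:miR396 2 and 1.65 on wild type 2, against 1.70 on 35S:miR396 1 and 1.76 on wild type 1b. That of the actin control was 12.0 on 35S:miR396 2 and 10.3 on wild type 2, against 13.4 on 35S:miR396 1 and 13.5 on wild type 1b. For these GAPDH and actin values both number 2 arrays were thus lower than both number 1 arrays. The ubiquitin ratio ran between 3.02 and 3.29 over the 4 arrays, and there the numbers overlapped. A second set of values for these controls differed in part. Its GAPDH ratio was higher on number 2, at 1.05 in 35S:miR396 and 0.971 in wild type, against 0.889 and 0.969 on number 1. Its actin ratio was lower on number 2, at 2.00 and 1.76 against 2.03 and 2.07, in the same order of genotypes. Its ubiquitin ratio was also lower on number 2, at 1.33 and 1.27 against 1.37 and 1.41. Summed signals of 3 measured root markers, out of 7 listed, were 1310 and 1185 on the number 2 arrays of 35S:miR396 and wild type, against 1393 and 1291 on their number 1 arrays. Nearly all of each sum came from PYK10, with 1289 and 1174 on number 2 against 1385 and 1270 on number 1. EXPA7 and EXPA18 had weak signals, up to 17.3. The sum of 6 measured nuclear photosynthesis genes, out of 26, which mark green tissue, was 46798 and 50660 on number 2 against 56717 and 53806 on number 1, again with 35S:miR396 before wild type. The 1 measured guard cell marker of 3 had 126 and 105 on number 2 against 108 and 78.5 on number 1 in the same order of genotypes. None of the 9 seed or 5 flower markers was measured by a probe set of 1 gene.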

How the data were processed

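RNA of 4 seedling samples was measured on Affymetrix arrays. The deposited intensity values are linear and come from MAS5, per the submitters' processing notes, with its version not given in the sources used here. Weak intensities are imprecise on the log scale. The 64 control probe sets of 22810 were left out, intensities at or under 0 were set to 0.1, and each array was scaled to a median of 70. Genes came from the platform annotation, with 13513 probe sets of 1 gene, 503 of several and 8730 of none, and symbols from RefSeq (TAIR10.1), used for names and neighbours only. Where several probe sets read a family gene, the strongest on average was used.

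The two-sided genotype test was limma 3.58.1 (R 4.3.3), with lmFit and trended eBayes on log2 scaled signals, after dropping the weakest 30% of probe sets by mean. All 113 members were tested. Tables and figures used Python 3.11.15, pandas 2.3.3, numpy 2.4.6 and matplotlib 3.10.9. Scripts were tested on simulated data. Members, gene lists, families and tests were chosen with earlier results of these data known. The rule for named genes takes the 25 largest ratios, members on pathway lists or in families with 2 or more members, the largest and smallest genotype differences, the largest moderated t and the genes nearest the border. The remaining single-gene members are named as well, to account for the whole group. Alternatives were deposited and quantile-normalized signals, other ratios, floors and filters, a pseudocount of 2, no trend, each array left out, and the replicate number as a block.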

Additional observations from a re-analysis of the deposited data

How the results depend on the processing

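The number of members was 113 and became 228 with a ratio of 2 and 55 with a ratio of 3. Leaving out 1 array, which can only add members, gave 152 to 188 (166 without 35S:miR396 2, 152 without wild type 2, 187 without 35S:miR396 1 and 188 without wild type 1b). It was 157 with deposited signals and 114 with quantile normalization, each sharing 111 with the main choice, and 89 or 135 with a floor of 100 or 20. With a pseudocount of 2, 5 of the 50 single-gene ratios fell below 2.5, the lowest to 2.45. The genotype test called 0 probe sets under every alternative without a block. The labels do not state that numbers pair the arrays. Over the 15923 probe sets the same-numbered arrays deviated together (r = 0.63, from only 2 pairs, a description). With the replicate number as a block, taking 1b as number 1, limma called 18 probe sets, 1 of them a member, AT3G22240 (log2 difference 0.96, 95% interval 0.61 to 1.32, adjusted p 0.0292), and changed no other member's call. The median half-width of the members' 95% intervals was 0.37 with the block, against 2.36 without it. With the block 25 of the 113 members had an unadjusted p by limma under 0.05, and 902 of all 15923 probe sets did. Without the block the counts were 0 and 104. The rule bears on the members' genotype differences and on the scatter left by the block, so nothing is read from these counts. With the block, 5 probe sets and 0 members were called on deposited signals, and 0 on quantile-normalized signals, both added after the data were seen. The median genotype log2 difference of the members was -0.04. It was -0.0776 on deposited signals and -0.00338 after the lowest 60% were left out, and -0.98 to 0.91 with each array left out, which leaves a genotype with 1 number only. The median difference in log2 fold between the genotypes, -0.01, was 0.45 on deposited signals, whose array medians differ, and 0.0219 after quantile normalization. The description of promoter motifs was not run, as no promoter sequences were used here. The 2 arrays per genotype limit the precision.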

Other observations

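In RefSeq gene order (TAIR10.1), the 50 single-gene members had 47 directly adjacent genes measured by a probe set of 1 gene, and 0 of these were members, where the share over all probe sets with 1 gene was 0.37%. Both number 2 signals lay above both number 1 signals for 15 of the 47, or 31.9%, against 22.2% of all probe sets with 1 gene, and the median fold of the neighbours was 0.99. The following neighbours were picked after their values were seen. AT1G11220, next to AT1G11210, had 9.38 on 35S:miR396 2 and 19.9 on wild type 2, against 4.28 on 35S:miR396 1 and 3.37 on wild type 1b, all far below the array median. AT4G30660, next to AT4G30650 and of the same RCI2 family, had 1305 on 35S:miR396 2 and 1580.1 on wild type 2, against 902 on 35S:miR396 1 and 1019 on wild type 1b.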
